A study of Rattus norvegicus with 8 samples.

Results

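Middle-density tiles are stretches of 1000 bases of the rat genome that held 11 to 20 CpG dyads with enough calls to be measured in every library of this brain methylation series. A CpG dyad is a C followed by a G together with the same letters on the other strand. Tiles followed each other without gaps from base 1 of chromosomes 1 to 20, and a dyad was kept where it had at least 10 calls in each of 8 libraries. In this way 10210 of the 140156 tiles with at least 1 kept dyad were members, and they held 144981 dyads. The choice used the number of covered dyads, not the methylation level. The libraries came from male Sprague Dawley rats fed for 6 weeks on DHA (docosahexaenoic acid, an omega-3 fat), starting at an age of 2 months. DNA from the dissected hippocampus gave 4 libraries and DNA from the hypothalamus the other 4. A treatment note shared by the samples names fructose as well as DHA, while the label of each sample names DHA alone. A chow-fed group was part of the study and was not analysed here, so the comparison is between the tissues of DHA-fed rats. Nothing in the labels says whether the libraries came from separate rats or whether tissues were pooled, so p-values measure only the spread between these libraries. The tissues cannot be checked by marker expression in methylation data.

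Cytosine methylation in mammals sits mostly at CpG dyads. Most of the genome is poor in CpG and highly methylated, while CpG islands, which hold many gene starts, are dense in CpG and usually stay free of methylation. Regions between these extremes, such as weak islands and island shores, are known as places where tissues often differ. Reduced representation bisulfite sequencing (RRBS) cuts DNA with MspI, at sites that contain a CpG, and reads the short fragments, so it samples CpG-rich DNA. Treatment with bisulfite makes an unmethylated cytosine read as T, whereas a methylated one still reads as C.

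The sequences that follow show what such tiles look like at the level of the letters. Each is the 250 bases upstream of a gene start in the RefSeq table (assembly GRCr8), with capitals at the CpG dyads that were kept. The first comes from the member tile with a gene start whose tissue difference was the largest, the second from the one with the largest difference in the other direction, and the third from a highly methylated gene start. They lie at chr4:147137743-147137992 on the plus strand (Cav3), chr2:167290507-167290756 on the minus strand (Tmem144) and chr19:479910-480159 on the plus strand (Terb1).

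Cav3: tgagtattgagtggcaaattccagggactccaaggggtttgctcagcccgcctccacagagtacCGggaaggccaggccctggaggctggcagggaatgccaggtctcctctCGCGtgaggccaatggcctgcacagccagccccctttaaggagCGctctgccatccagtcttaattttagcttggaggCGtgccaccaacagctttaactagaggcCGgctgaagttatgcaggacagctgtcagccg

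Tmem144: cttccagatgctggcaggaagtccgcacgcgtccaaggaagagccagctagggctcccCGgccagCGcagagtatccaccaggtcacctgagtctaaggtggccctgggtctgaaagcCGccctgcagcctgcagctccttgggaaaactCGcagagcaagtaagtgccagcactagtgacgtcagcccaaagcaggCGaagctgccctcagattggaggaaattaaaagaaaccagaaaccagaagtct

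Terb1: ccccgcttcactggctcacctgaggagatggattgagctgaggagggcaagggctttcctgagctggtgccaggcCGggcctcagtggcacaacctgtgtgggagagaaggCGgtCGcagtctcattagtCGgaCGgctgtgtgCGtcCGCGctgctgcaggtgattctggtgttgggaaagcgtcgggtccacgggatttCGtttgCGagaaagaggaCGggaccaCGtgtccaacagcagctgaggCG

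The next stretch is part of the member tile with the largest tissue difference of all, at chr7:32071413-32071532 in the deposited coordinates (rn5, per the submitters' processing notes). It is shown because 9 of the 15 kept dyads of that tile stand in these 120 bases. Letters come from the listed cytosines of both strands, n is a base for which none was listed, and capitals mark the kept dyads.

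Chromosome 7 tile: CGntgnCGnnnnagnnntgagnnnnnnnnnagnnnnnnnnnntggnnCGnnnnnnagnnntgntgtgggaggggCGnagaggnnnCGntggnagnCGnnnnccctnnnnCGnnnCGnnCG

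Middle-density tiles were mostly unmethylated or highly methylated, and the rest were spread over the levels between. A tile's level is its methylated calls as a percent of all its calls, and the mean level is taken over the 8 libraries. Of the 10210 members, 4876 (47.8%, Wilson interval at 95% confidence 46.8 to 48.7%) had a mean level under 5%. At the upper end, 2085 (20.4%) lay at 80 to 95% and 353 (3.46%) above 95%. Between these, 977 (9.57%) lay at 5 to 20% and 905 (8.86%) at 60 to 80%. The classes at 20 to 40% (512, 5.01%) and 40 to 60% (502, 4.92%) were smaller. The median was 6.54% and the mean 33.5%, so the mean describes few members. Tiles with more than 20 kept dyads (4743, called CpG-dense) were mostly unmethylated, with a median of 1.29% and 84.4% of tiles under 5%. Tiles with 3 to 10 kept dyads (80323, called CpG-poor) had a median of 82.0% and 6.79% of tiles under 5%. Intervals here and elsewhere cover counting error only.

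**Figure D1:**
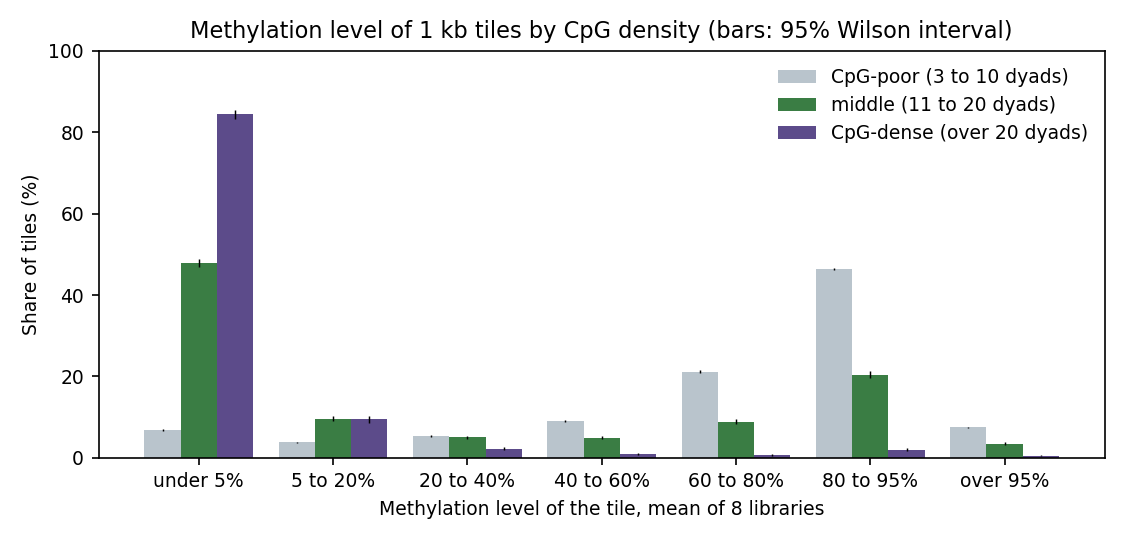
Share of tiles (y axis, percent) in 7 classes of mean methylation level over 8 libraries (x axis), for CpG-poor, middle-density and CpG-dense tiles, with bars for the 95% Wilson interval. Middle-density tiles have a high bar under 5% (47.8%) and a second rise at 80 to 95% (20.4%).

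Within the members the level followed the number of kept dyads. At 11 dyads (2084 tiles) 30.9% of tiles were under 5% and the median level was 59.5%. At 15 dyads (959 tiles) the share was 52.9% and the median 4.14%. At 20 dyads (481 tiles) the share was 75.1% and the median 1.47%. Just outside the limits, the share was 25.1% at 10 dyads and 73.4% at 21 dyads, so the limits cut through a gradual change. The kept dyads of a member spanned a median of 322 bases with a median gap of 13 bases. The corresponding values were 532 and 8 bases in CpG-dense tiles and 170 and 28 bases in CpG-poor tiles. The class is also one of coverage. Counting dyads listed in any library, members had a median of 17, and 34.4% of them had more than 20. Of the listed cytosines in a member, a median of 20% were in CpG context, compared with 27.2% in CpG-dense and 11.4% in CpG-poor tiles.

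**Figure D2:**
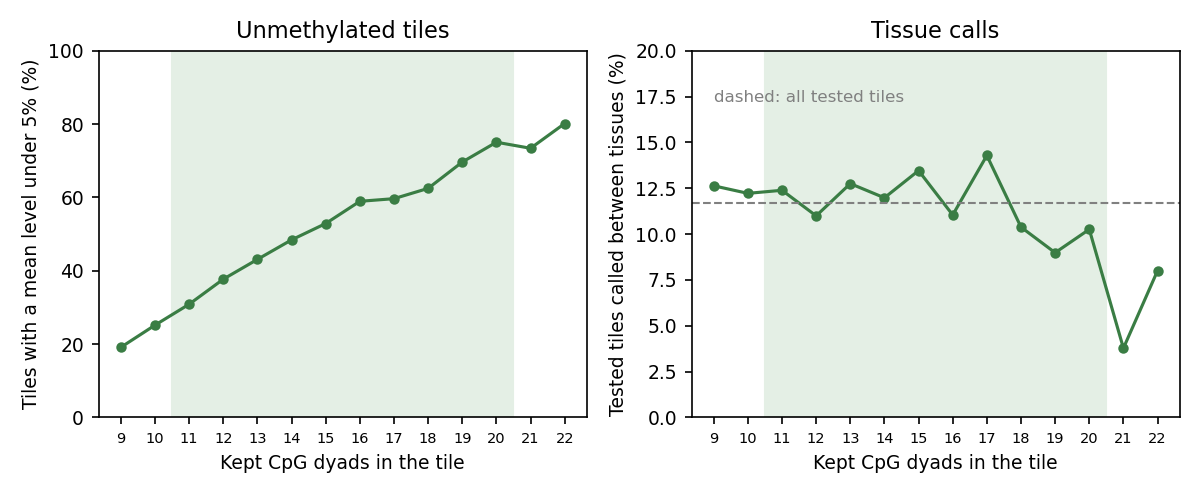
Left, share of tiles with a mean level under 5% (percent) by the number of kept CpG dyads. Right, share of tested tiles called between tissues (percent), with all tested tiles as a dashed line at 11.7%, and the members shaded. The unmethylated share goes from 30.9% at 11 dyads to 75.1% at 20, while the called share stays between 8.98% and 14.3% inside the shaded range.

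Distance to the nearest CpG-dense tile was counted over tiles covered in all libraries, so CpG-dense DNA without such coverage is not seen. Of the members 989 (9.69%) lay next to a CpG-dense tile, and 8710 (85.3%) had none within 5 tiles. Members next to a CpG-dense tile had a median level of 1.53%, and 75.4% of them were under 5%. Members without one within 5 tiles had a median of 11.7%, and 44.9% of them were under 5%. By chromosome, the share of members under 5% ran from 33.5% (chromosome 12, 529 members) to 54.5% (chromosome 4, 517 members).

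Dyads of one tile were often alike. In 5026 members (49.2%) all kept dyads were under 20%, and in 926 (9.07%) all were above 80%. In 1300 members (12.7%) the dyads spanned more than 50 percentage points, compared with 6.24% of CpG-dense and 7.48% of CpG-poor tiles, which differ in the number of dyads as well. When the kept dyads were split at the middle one, the sides differed by more than 50 points in 59 of the 10210 members. The same held in 734 of 80323 CpG-poor and 11 of 4743 CpG-dense tiles. The largest such step in a member was on chromosome 4 from 197621001 to 197622000, with 9.50% on the lower side and 92.6% on the upper side. Its 7 lower dyads all lay within 153 bases of the tile's first base, and its 8 upper dyads within 496 to 726 bases. The tile as a whole had 48.3% ± 1.83 (SD, n = 4) in hippocampus and 44.6% ± 3.17 in hypothalamus, with an adjusted p of 0.364 in the quasi-binomial model described in the next paragraphs. The tile means near 50% were thus averages over dyads of which none lay near 50%. The tile on chromosome 9 from 89098001 to 89099000 (17.7% and 94.7%) had the same form and was not called. The tile on chromosome 3 from 158571001 to 158572000 (10.1% and 87.6%) was not called either, and its 4 hypothalamus libraries spread from 38.0% to 70.4%, while its hippocampus libraries lay between 51.1% and 56.0%.

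Depth set how far single tiles can be read. Libraries held between 178178404 and 625653602 listed calls. A member tile held a median of 1080.5, 976, 1096 and 1224 calls in the hippocampus libraries, in order of their number, and of 896.5, 1139, 336 and 528.5 calls in the hypothalamus libraries, so hypothalamus 3 was the shallowest. CHH cytosines followed by C, which are rarely methylated and therefore show calls left unconverted by bisulfite, had levels of 0.370, 0.332, 1.76 and 1.85% in the hippocampus libraries and 1.003, 0.310, 0.412 and 1.01% in the hypothalamus libraries. Hippocampus 3 and 4 were the highest. The mean level of the 4876 members under 5% followed the same order of libraries at the top, with 0.886, 0.755, 2.97 and 3.07% in hippocampus and 1.73, 0.839, 1.04 and 1.72% in hypothalamus. The tissues overlapped there, and these members were left out of the main test of single tiles, which was limited to mean levels of 5 to 95%.

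Mean levels were compared over all members and over those that were neither unmethylated nor fully methylated. Over all 10210 members the mean level was 32.4, 31.7, 34.0 and 34.1% in the hippocampus libraries and 34.2, 33.1, 33.5 and 35.1% in the hypothalamus libraries. The libraries overlapped, and the difference of 0.912 points (SE 0.737), hypothalamus minus hippocampus as everywhere here, gave p = 0.229 in a two-sided exact permutation test. It was 0.471 points without hippocampus 2 and 0.540 points without hypothalamus 4, and with calls summed over tiles its direction turned (-0.303 points). Over the 4981 partly methylated members, those with a mean level of 5 to 95%, the values were 58.7, 57.5, 60.01 and 60.1% in hippocampus and 61.6, 60.3, 60.9 and 63.4% in hypothalamus. Every hypothalamus library lay above every hippocampus library. The group means were 59.1% ± 1.21 (SD, n = 4) and 61.5% ± 1.36, a difference of 2.47 points (SE 0.910) with an exact permutation p of 0.0286. That is the smallest p that 4 libraries against 4 allow, and it was 0.0714 after Benjamini-Hochberg adjustment over 5 comparisons, which misses 0.05. Without hypothalamus 4 the difference was 1.84 points (exact p = 0.0857), without hippocampus 1, 2, 3 or 4 it was 2.34, 1.95, 2.78 and 2.80 points (exact p = 0.0571 each), and with calls summed over tiles it was 1.501 points (exact p = 0.286). In bulk tissue, a different mix of cell types and a different level within a cell type cannot be told apart.

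By class of level, the difference had its highest values between 40 and 80%. Members at 40 to 60% averaged 47.9% ± 1.89 (SD, n = 4) in hippocampus and 53.1% ± 2.74 in hypothalamus, a difference of 5.18 points (SE 1.66). At 60 to 80% the means were 69.2% ± 1.45 and 74.0% ± 1.80, a difference of 4.86 points (SE 1.16). In both classes the tissues did not overlap, with an exact permutation p of 0.0286 and an adjusted p of 0.0714 over 5 classes. At 20 to 40% the difference was 4.01 points (SE 1.56, exact permutation p = 0.0857), and 4.99 points without hypothalamus 2 (exact permutation p = 0.0286). It was 2.90 points without hypothalamus 4 (exact permutation p = 0.171) and 3.26 points without hippocampus 2 (exact permutation p = 0.114). At 5 to 20% it was 1.02 points (exact permutation p = 0.314), and 0.679, 0.522 and 0.561 points without hippocampus 1, hippocampus 2 and hypothalamus 4. At 80 to 95% it was 1.07 points (exact permutation p = 0.0857), and 1.32 points without hippocampus 4 (exact permutation p = 0.0286). Without hypothalamus 4 it was 0.713 points and without hippocampus 2 it was 0.765 points (exact permutation p = 0.2 each). Leaving out 1 library at a time gave 4.04 to 6.22 points at 40 to 60%, with an exact permutation p of 0.0571 without any of the 4 hippocampus libraries (5.15, 4.31, 5.72 and 5.55 points) and also with calls summed (4.30 points). At 60 to 80% it gave 3.99 to 5.27 points, each with an exact permutation p of 0.0286.

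**Figure D3:**
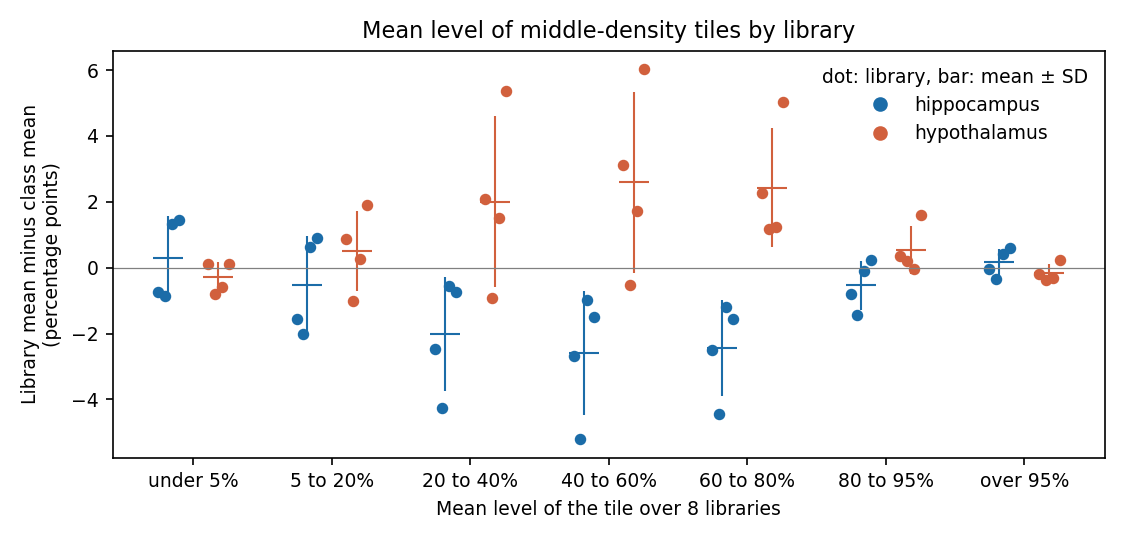
Mean level of middle-density tiles in each library minus the mean over all 8 libraries (y axis, percentage points), by class of mean tile level (x axis). Dots are libraries and bars the mean ± SD of 4. At 40 to 60% and 60 to 80% all hypothalamus dots lie above all hippocampus dots, while under 5% hippocampus 3 and 4 lie highest.

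Set against the other densities, the tissue difference of partly methylated members was 1.10 points larger (SE 0.203) than that of partly methylated CpG-dense tiles. The difference between member and CpG-dense means was 32.5, 32.2, 32.1 and 32.0 points in the hippocampus libraries and 32.9, 33.1, 33.5 and 33.7 points in the hypothalamus libraries, without overlap (exact permutation p = 0.0286, 0.0714 adjusted over 5 comparisons). Partly methylated CpG-dense tiles had far lower levels, however, with 26.9% in hippocampus and 28.2% in hypothalamus. Densities were also compared at matched level, an alternative added after the data were seen. No contrast of members with CpG-dense or CpG-poor tiles passed adjustment over 10 comparisons (lowest adjusted exact permutation p = 0.0952). Passing would need many contrasts at the smallest exact permutation p of 0.0286, so this result does not show that the densities were alike. Hippocampus and hypothalamus values were fully separate, at that smallest p, in contrasts with CpG-dense tiles at 40 to 60% and 60 to 80%. The same held against CpG-poor tiles at 5 to 20%, and in the other contrasts the values overlapped. From the lowest to the highest of the 5 classes, the tissue difference of members minus that of CpG-dense tiles was 0.0780, 1.64, 3.26, 1.72 and -0.381 points, with 42 and 28 CpG-dense tiles at 40 to 60% and 60 to 80%. Minus that of CpG-poor tiles it was -0.826, -1.18, -0.692, 0.814 and 0.200 points, so that the sign was not the same in all classes. Against CpG-poor tiles the tissue difference of members differed by -0.0283 points (SE 0.215, exact permutation p = 0.943), a value whose sign turned when any of hippocampus 3, hippocampus 4 or hypothalamus 4 was left out. With calls summed over tiles it was -0.832 points (exact permutation p = 0.0286), and no library was left out of that sum.

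Single tiles were tested with a quasi-binomial model of methylated and unmethylated counts, with a spread shared across tiles through limma. Calls needed 10 points or more between the tissue means as well as an adjusted p below 0.05. Of 75495 tested tiles of the whole series 8860 were called (11.7%), with hypothalamus higher in 10.5% and hippocampus higher in 1.25%. Of the 4981 tested members 597 were called (11.99%), close to that background. Hypothalamus was higher in 516 of them and hippocampus in 81. Thus 86.4% of calls were higher in hypothalamus, compared with 89.3% in all tiles. Calls in the same order of direction numbered 334 and 56 with the spread of each tile alone, and 181 and 56 in replicates 2 and 3. In the 4 libraries with lower unconverted calls they numbered 470 and 97, and in those with higher ones 357 and 46. The median difference over tested members was 0.945 points, and 0.989 points over all tested tiles. Called members differed by a median of 15.1 points where hypothalamus was higher and -13.7 points where hippocampus was higher. In 546 of the 597 called members no library of one tissue lay within the range of the other. Without overlap were also 1179 (23.7%) of all tested members, compared with 19.9% of all tested tiles. A difference of at least 20 points was present in 128 called members, 2.57% of those tested, against 2.89% of all tested tiles. With no limit on the mean level, 541 of all 10210 members were called (5.30%, against 7.81% of 96633 tiles of the series), each of them also among the 597. A tile with a mean level under 5% or above 95% cannot differ by 10 points, so no tile of those levels could be added. The shares of 5.30% and 7.81% thus depend on how many tiles lie there, with 47.8% of members under 5% against 6.79% of CpG-poor tiles. In CpG-dense tiles 34 of 715 were called (4.76%), and in CpG-poor tiles 8173 of 68843 (11.9%). These shares are not matched for level, as 448 of the 715 CpG-dense tiles lay at 5 to 20%. At 5 to 20, 20 to 40, 40 to 60, 60 to 80 and 80 to 95%, CpG-dense tiles were called in 0.670, 14.2, 14.3, 21.4 and 4.40% of cases.

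Calls in members were most frequent at middle levels, as they were in CpG-poor tiles. At 40 to 60% 154 of 502 members were called (30.7%), at 60 to 80% 229 of 905 (25.3%) and at 20 to 40% 107 of 512 (20.9%). At 5 to 20% the count was 26 of 977 (2.66%) and at 80 to 95% 81 of 2085 (3.88%). CpG-poor tiles in the same order of levels were called in 27.1%, 20.9%, 23.3%, 5.35% and 4% of cases, and the difference between the densities in these shares was not tested. Depth was not matched either. The shallowest library of a tile held a median of 321 calls in members, 100 in CpG-poor and 696 in CpG-dense tiles. Levels near the ends of the scale leave less room for a difference of 10 points. At 5 to 20% the directions were most even, with 15 called members higher in hypothalamus and 11 higher in hippocampus. By number of dyads, 12.4% of tested members were called at 11 dyads and 10.3% at 20, against 12.2% at 10 and 3.77% at 21 (4 of 106). Next to a CpG-dense tile 15 of 237 tested members were called (6.33%), and 550 of 4461 (12.3%) where none lay within 5 tiles. Over all their members these groups had median levels of 1.53% and 11.7%, and they were not compared at matched level. The called share by chromosome ran from 8.97% (chromosome 1) to 15.6% (chromosome 6).

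In called members the dyads moved as a block more often than not. In 422 of the 597 (70.7%) every kept dyad differed in the same direction. The same was true of 67.6% of called CpG-dense and 90.2% of called CpG-poor tiles, which differ in the number of dyads as well. The count of dyads sharing the direction is no independent evidence, since the tile is the sum of its dyads. Tested members whose dyads spanned more than 50 points were called in 188 of 1287 cases (14.6%), and the others in 409 of 3694 (11.1%). These groups were not compared at matched level, and called shares went with level (2.66% at 5 to 20%, 30.7% at 40 to 60%).

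Among called members without overlap, the 8 with the largest difference in each direction are described by rank. All positions are as deposited. The first of those higher in hypothalamus was on chromosome 7 from 32071001 to 32072000, the tile whose dyads are printed above, with 15 kept dyads. It had 32.3, 22.5, 44.9 and 33.8% in hippocampus and 83.1, 80.3, 82.1 and 85.9% in hypothalamus. The hypothalamus libraries lay close together and far above the hippocampus libraries, whose spread was the wider. The difference was 49.5 points (SE 4.73) with an adjusted p of 4.46e-06 in the quasi-binomial model. All 15 dyads differed in this direction without overlap, by 26.8 to 57.8 points, and the dyads spanned bases 300 to 642 of the tile.

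The second, on chromosome 1 from 190780001 to 190781000 with 11 dyads, had 34.5, 22.8, 40.9 and 26.8% in hippocampus and 81.3, 75.6, 80.4 and 80.7% in hypothalamus. The third, on chromosome 9 from 46989001 to 46990000 with 13 dyads, had 41.2, 35.4, 53.0 and 47.5% in hippocampus and 91.4, 88.2, 93.4 and 92.4% in hypothalamus. In both of these tiles hippocampus 2 was the lowest and hippocampus 3 the highest of its tissue, as in the chromosome 7 tile. The other 5 lay on chromosome 4 from 195003001 (41.2 points), chromosome 5 from 165175001 (39.6 points), chromosome 14 from 4824001 (39.2 points), chromosome 5 from 26279001 (36.4 points) and chromosome 5 from 108080001 (35.6 points). Hippocampus means of the 8 tiles lay between 25.8% and 53.7% and hypothalamus means between 65.0% and 91.4%, so the hippocampus held the intermediate level and the hypothalamus the high level. Adjusted p-values of the quasi-binomial model ran from 2.53e-06 to 3.00e-05.

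The first tile of the other direction was on chromosome 3 from 176622001 to 176623000, with 17 kept dyads. It had 48.3, 51.5, 45.3 and 52.1% in hippocampus and 13.4, 11.7, 13.6 and 12.7% in hypothalamus. Both tissues were tight, at 49.3% ± 3.16 (SD, n = 4) and 12.8% ± 0.882, and the difference was -36.5 points (SE 1.64, adjusted p = 6.20e-07 in the quasi-binomial model). All 17 dyads were lower in hypothalamus, by 14.1 to 48.3 points, 16 of them without overlap. The dyads stood in separate groups, at bases 19 to 185 and 601 to 752 of the tile, and the difference was present in both.

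The second was on chromosome 14 from 105665001 to 105666000, with 63.2, 43.7, 56.4 and 63.6% in hippocampus and 29.9, 29.99, 20.7 and 24.8% in hypothalamus. The fourth, on chromosome 14 from 77689001 to 77690000 with 18 dyads, had 32.2, 28.4, 28.7 and 34.6% in hippocampus and 10.2, 6.32, 8.61 and 8.27% in hypothalamus. The hypothalamus was thus close to unmethylated in this tile and intermediate in the one before it. The others were on chromosome 2 from 278040001 (-25.8 points), chromosome 12 from 40744001 (-22.5 points), chromosome 7 from 26365001 (-21.8 points), chromosome 10 from 84792001 (-20.5 points) and chromosome 11 from 70192001 (-20.5 points). The chromosome 10 tile lost its call with its own dispersion alone (adjusted p = 0.0512 in the quasi-binomial model) and in the 4 libraries with higher unconverted calls (0.0565), and the chromosome 11 tile in replicates 2 and 3 alone (0.0747). Adjusted p-values of the quasi-binomial model over the 8 tiles ran from 6.20e-07 to 0.00118. In this direction the hypothalamus means covered 8.35% to 56.1% and the hippocampus means 31.0% to 76.7%.

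Of members at the upper limit of 20 dyads, the 3 with the largest differences were on chromosome 13 from 101820001 (20.4 points), chromosome 12 from 42367001 (19.6 points) and chromosome 5 from 162540001 (14.6 points). All were higher in hypothalamus without overlap and were called. The chromosome 5 tile had 85.03% on the lower side of its dyads and 49.7% on the upper side, and with dyads of at least 20 calls alone its difference was 4.71 points, which is not a call. The chromosome 13 tile lost its call in replicates 2 and 3 alone (adjusted p = 0.06998 in the quasi-binomial model).

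**Figure D4:**
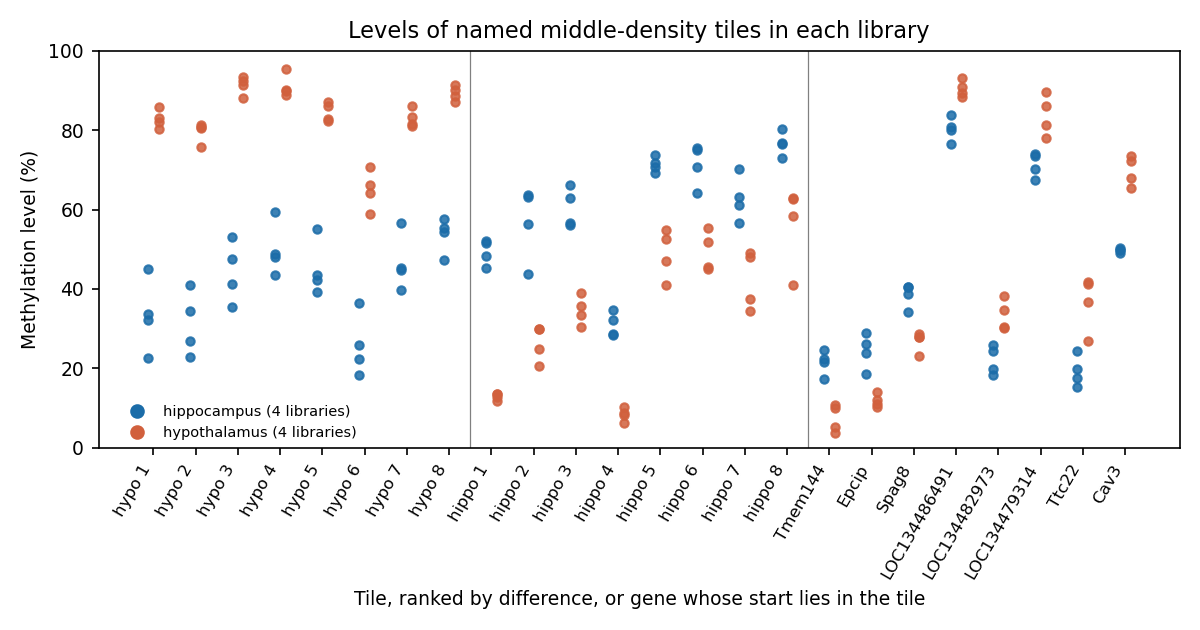
Methylation level (y axis, percent) of named middle-density tiles in each of 8 libraries, as dots. The left and middle panels hold the 8 called tiles of largest difference higher in hypothalamus and in hippocampus, and the right panel the 8 called tiles with a gene start. In every tile the dots of the tissues do not overlap.

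No annotation of the deposited coordinates was used. Gene starts were instead placed by their letters: 300 bases around each start in the RefSeq table (250 before and 50 after) were compared with the letters given by the listed cytosines. This step was added after the data were seen, and the genes named from it were chosen after their values were seen. Of 33469 windows 7021 found a single place, and 6906 of these (98.4%) stood on the chromosome the table gives. The number of genes placed was 6249. A start that was not placed can still lie in a member, so the counts are lower limits.

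Members that hold a placed gene start were mostly unmethylated. A start was placed in 1496 members (14.7%). Their median level was 1.25%, and 1306 of them (87.3%) were under 5%. Members without a placed start had a median of 17.4%, with 41.0% under 5%. The 300 bases around starts in members held a median of 23 CpG, with a GC content of 63.3%, compared with 27 CpG in CpG-dense and 18 CpG in CpG-poor tiles. A median of 43.5% of those CpG were kept, so many starts in members are CpG-rich DNA of which only part was covered in every library. Of the members with a placed start 186 could be tested, and 8 were called (4.30%), compared with 589 of 4795 (12.3%) without a placed start. The groups differed in level too, with 47 of 1496 members above 50% with a placed start and 3565 of 8714 without. Called shares of members went with level (2.66% at 5 to 20%, 30.7% at 40 to 60%), and the groups were not compared at matched level.

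The largest difference among those 8 was at Cav3, which encodes caveolin 3, the caveolin of muscle membranes. The tile, on chromosome 4 from 207683001 to 207684000 with 12 kept dyads, had 49.1, 49.7, 50.3 and 49.9% in hippocampus and 68.0, 65.5, 73.4 and 72.3% in hypothalamus. The hippocampus libraries were nearly equal, and all hypothalamus libraries lay above them. The difference was 20.01 points (SE 1.87, adjusted p = 0.000152 in the quasi-binomial model). It stood in the 6 dyads just before the gene start, the capitals of the Cav3 sequence printed above, which lay 186 to 32 bases upstream of the start and differed by 21.5 to 34.1 points, each without overlap. The dyad 95 bases upstream had 31.3% ± 5.21 (SD, n = 4) in hippocampus and 65.4% ± 4.55 in hypothalamus. The other 6 dyads lay at bases 660 to 988 of the tile, downstream of the start, and differed by -7.69 to 8.88 points, 1 of them without overlap. There hippocampus was already at 59.4 to 93.3%.

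Tmem144, which encodes a transmembrane protein, had the largest difference in the other direction. Its tile, on chromosome 2 from 198027001 to 198028000 with 13 dyads, had 17.2, 24.6, 22.3 and 21.5% in hippocampus and 5.17, 3.69, 10.7 and 9.90% in hypothalamus. The tissues did not overlap, and the difference was -14.0 points (SE 2.32, adjusted p = 0.000103 in the quasi-binomial model). All 13 dyads were lower in hypothalamus, by 8.73 to 19.4 points, on both sides of the start, 8 of them without overlap. At the dyad 100 bases upstream, hippocampus had 16.7% ± 3.501 (SD, n = 4) and hypothalamus 1.04% ± 2.08.

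Ttc22, a gene for a protein with tetratricopeptide repeats, had 17.5, 15.4, 24.4 and 19.9% in hippocampus and 36.8, 41.3, 26.9 and 41.7% in hypothalamus (17.4 points, SE 3.95, adjusted p = 0.000514 in the quasi-binomial model). Its kept dyads all lay downstream of the start, at bases 651 to 998 of the tile, and 3 of the 11 did not overlap between tissues. Epcip (-12.6 points, adjusted p = 0.000377 in the same model) and Spag8, a gene for a sperm-associated antigen (-11.6 points, adjusted p = 0.00643 in the same model), were lower in hypothalamus, and at Epcip 8 of 13 dyads did not overlap. The call at Spag8 was lost in replicates 2 and 3 alone (adjusted p = 0.196 in the same model) and in the 4 libraries with lower (0.109) and with higher (0.0752) unconverted calls, and 2 of its 12 dyads did not overlap. The other 3 starts belong to uncharacterised genes, LOC134479314 (12.4 points), LOC134482973 (11.2 points) and LOC134486491 (10.03 points), all higher in hypothalamus, with 4 of 12, 4 of 12 and 7 of 13 dyads without overlap. The call at LOC134482973 was lost without hippocampus 2 (9.96 points) or hypothalamus 3 (9.66 points). That at LOC134486491 was lost without hippocampus 1 (9.97 points), hippocampus 2 (8.76 points), hypothalamus 2 (9.88 points) or hypothalamus 3 (9.13 points), each time because the difference went under 10 points. The calls at LOC134482973 (adjusted p = 0.0694 in the same model) and LOC134479314 (0.0710) were lost where each tile kept its own dispersion. In the libraries with higher unconverted calls all 3 were lost (0.217 at LOC134482973, 0.131 at LOC134486491 and 0.108 at LOC134479314). In replicates 2 and 3 alone LOC134482973 (0.176), LOC134486491 (0.0569), Ttc22 (0.07999) and Cav3 (0.0545) were lost, and with dyads of at least 20 calls LOC134486491 had 7.71 points.

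**Figure D5:**
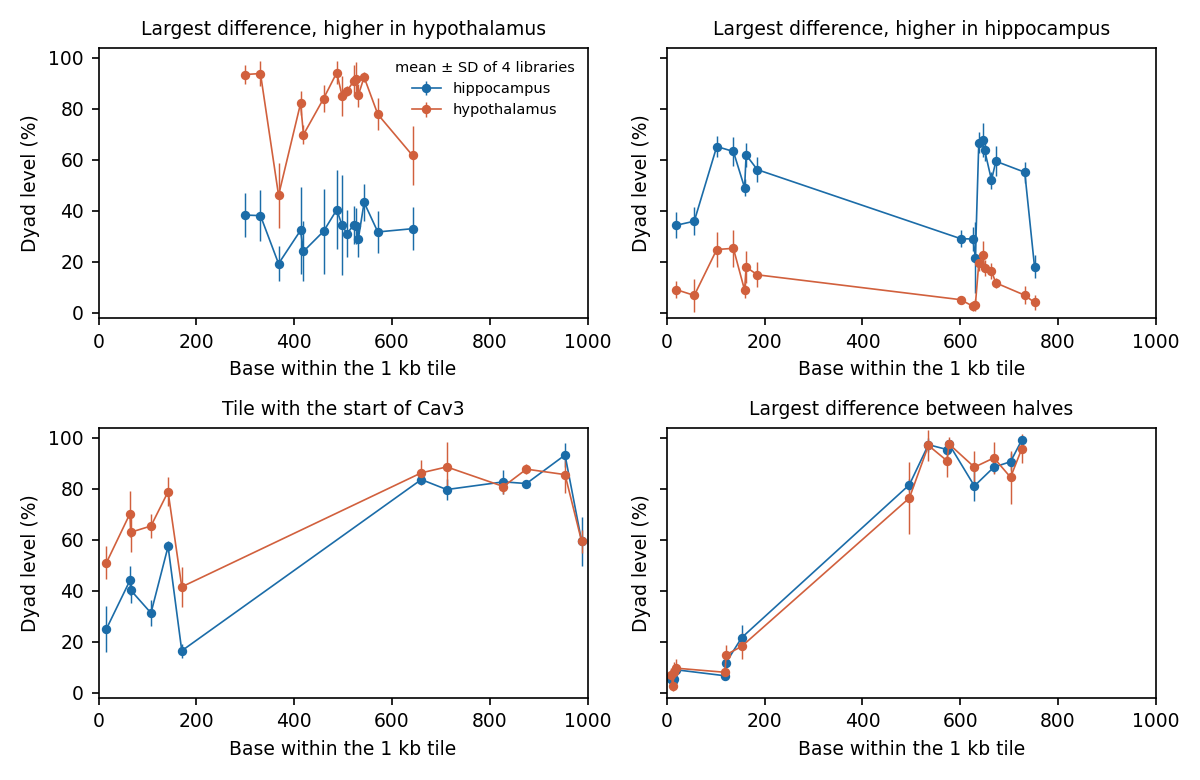
Level of each kept dyad (y axis, percent, mean ± SD of 4 libraries per tissue) by its base within the 1 kb tile (x axis) in 4 middle-density tiles. The tissues separate at all 15 dyads in one top tile and at 16 of the 17 in the other, mainly before the gene start in the Cav3 tile, and nowhere in the tile with the largest step between its sides (9.50% and 92.6%).

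A few gene starts in members were highly methylated. In 47 members with a placed start the mean level was above 50%, and in 26 it was above 80%. Of these 26, 4 lay above 95% and were not tested, and 1 of the others was called (LOC134486491). Of all members at 80 to 95%, 3.88% were called. The 26 included Tuba3b (96.5%), a gene for an alpha tubulin, Tenm3 (94.7%), a gene for a teneurin of neuronal wiring, Rbm44 (90.6%), a gene for an RNA-binding protein, and Terb1 (89.9%), a gene for a protein that ties telomeres to the nuclear envelope in meiosis. Spaca1 (88.4%), a gene of the sperm acrosome, and Cldn18 (83.1%), a claudin of stomach and lung, were among them as well. The Terb1 tile, on chromosome 19 from 675001 with 16 dyads, had 89.9% ± 1.98 (SD, n = 4) in hippocampus and 89.9% ± 2.52 in hypothalamus. In the Terb1 sequence printed above, 13 kept dyads stand before the start. Of these 11 had at least 83.6% in both tissues, and the dyads 106 and 23 bases upstream were lower, at 55.2% and 68.0% in hippocampus and 59.6% and 71.6% in hypothalamus. At Cldn18 hippocampus had 87.5% ± 3.12 and hypothalamus 78.8% ± 3.44, and the libraries overlapped.

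Genes of brain regions and of fatty acid synthesis were looked up in lists of 69 genes. Few could be placed: 3 of 25 hypothalamic regulators and neuropeptides, 5 of 17 hippocampal and cortical regulators, 1 of 8 neuron markers, 0 of 12 markers of glia and other cell types, and 3 of 7 genes of long-chain fatty acid synthesis. In members lay the starts of 7 of them, and 0 were called. In the whole series 11.7% of tested tiles were called, but of these 7 starts only that of Neurod2 had a level that could be tested. Neurod2 and Neurod1 encode transcription factors of neuronal differentiation. Neurod2 had 5.70% ± 1.96 (SD, n = 4) in hippocampus and 7.69% ± 0.938 in hypothalamus (adjusted p = 0.221 in the quasi-binomial model), and Neurod1 had a mean of 2.66%. Six6, a homeobox gene of the developing hypothalamus and eye, had 1.86%, and Slc32a1, the vesicular transporter of GABA and glycine, 1.23%. The desaturase genes Fads1 (2.04%) and Fads2 (1.15%) and the elongase gene Elovl5 (0.904%), whose enzymes make long-chain fatty acids such as DHA, were unmethylated in both tissues. With a mean level under 5% over the 8 libraries, a difference of 10 points is not possible in either direction. Apart from Neurod2, these starts therefore could not be called.

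Methylation outside CpG was low in members. Neurons are known to carry non-CpG methylation, mostly where C is followed by A. At such CHH cytosines the level in members was 1.46, 1.20, 4.03 and 4.28% in hippocampus and 2.35, 1.16, 1.57 and 2.40% in hypothalamus, over 129381 positions. Hippocampus 3 and 4, whose unconverted calls were the highest, lay above all others. The difference of -0.873 points (SE 0.873) gave an exact permutation p of 0.371. It was -1.39 points without hippocampus 2, -0.445 points without hippocampus 3, -0.360 points without hippocampus 4 and 0.0340 points in the 4 libraries with lower unconverted calls. Less the level at CHH cytosines followed by C in the same members, the values were 1.12, 0.900, 2.32 and 2.49 points in hippocampus and 1.39, 0.879, 1.19 and 1.42 points in hypothalamus. This surplus went with the CpG level of the member. In members at 80 to 95% it was 1.70 to 3.24 points over the 8 libraries. In members under 5% it was between -0.0220 and 0.228 points in 6 libraries and 1.55 and 1.64 points in hippocampus 3 and 4. The part of unconverted calls in those values was not tested.

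Across the 4981 partly methylated members, the levels of libraries of one tissue were closely alike, with Pearson correlations of 0.989 to 0.993 within hippocampus and 0.983 to 0.9896 within hypothalamus. Between the tissues they were 0.961 to 0.979. These are correlations across tiles, which share libraries and a wide range of levels, and are given as a description.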

How the data were processed

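RRBS libraries of hippocampus (4) and hypothalamus (4) were compared. Per the labels' protocols, DNA was cut with MspI, sized to 150 to 300 bp, treated with bisulfite and sequenced on an Illumina instrument. The submitters' processing notes name Bowtie and rn5, without a role or version. How duplicates were handled and methylation was called is not given in the sources used here. Per listed cytosine, the authors deposited counts of methylated calls and of all calls, with a floor of 10 calls that the values show. The deposited fraction divides the one by the other and entered no test.

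Calls of both strands were added per CpG dyad, and dyads with at least 10 calls in each library were summed in 1000-base tiles. Tiles with at least 3 dyads and a mean level of 5 to 95% were tested with a quasi-binomial logistic model with tissue as its term. The Pearson dispersion was moderated with limma 3.58.1 (squeezeVar, trend on information, at least 1) in R 4.3.3, followed by an F test and Benjamini-Hochberg adjustment over all 75495 tested tiles. The model was tested on simulated data. Library means were compared by two-sided exact permutation tests over 70 assignments (smallest p 0.0286). Differences carry the SE from the SDs of the tissues.

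Tiles named were the 8 called tiles of largest difference without overlap in each direction, the 3 with the largest step between their dyads and the 3 with 20 dyads and the largest difference. Members, lists and tests were chosen with earlier results of these data known. Gene starts were placed where 10 consecutive listed cytosines of a RefSeq window (GRCr8) fitted and at least 60 letters could be compared with at least 98% equal, at a single place and on the table's chromosome. No coordinates were converted. Alternatives were a minimum of 20 calls or 20 points, tiles shifted by 500 bases, other weights, other tests (edgeR 4.0.16, limma on logit levels), a replicate block and fewer libraries. Gene lists were written by hand and gave no test.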

Additional observations from a re-analysis of the deposited data

Results flagged for a closer look

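Over the named tiles and the library means compared in the report, 80 groups of 4 library values were looked at, and 3 of them held a library that stood apart from the other 3 of its tissue by more than the critical value of Dixon's test. About 1 group in 20 does so by chance, which would be 4. In the tile on chromosome 1 from 190780001, hypothalamus 2 had 75.6% and the others 80.4 to 81.3%. In the tile on chromosome 5 from 162540001, hypothalamus 4 had 77.0% and the others 81.0 to 81.1%. In the tile on chromosome 5 from 63674001, which holds the start of Spag8, hypothalamus 3, the shallowest library, had 23.02% and the others 27.8 to 28.6%. All 3 tiles are without overlap between the tissues, so every hypothalamus value in them, flagged or not, lies outside the hippocampus range.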

How the results depend on the processing

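The difference over all members was -0.303 points with calls summed over tiles and 1.18 (exact permutation p = 0.0286) with unconverted calls subtracted, an alternative added after the data were seen. Leaving out 1 library gave 0.471 to 1.26. For partly methylated members it was 1.501 with calls summed, 1.81 in replicates 2 and 3 alone, and 2.47 and 2.46 in the 4 libraries with lower and with higher unconverted calls. Leaving out 1 library gave 1.84 to 2.89. Against CpG-dense tiles the same settings gave 1.18 (exact permutation p = 0.314), 1.15, 0.957 and 1.25, and 0.974 to 1.23 without 1 library. With 2 libraries a tissue no exact p can go below 0.333. Against CpG-poor tiles calls summed gave -0.832 (exact permutation p = 0.0286), and the sign turned with unconverted calls subtracted (0.0221), in replicates 2 and 3 (0.009997) and in the libraries with lower unconverted calls (0.360); without 1 library it was -0.163 to 0.114. The CA difference was 0.0340 in the libraries with lower unconverted calls and -1.39 to -0.360 without 1 library.

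Members called higher in hypothalamus and in hippocampus numbered 119 and 9 at 20 points, 334 and 56 with the dispersion of each tile alone, 357 and 46 where unconverted calls were higher, and 181 and 56 in replicates 2 and 3. These were 2.57%, 7.83%, 7.91% and 4.78% of tested members, against 2.89%, 6.75%, 6.49% and 3.28% of all tested tiles. Where unconverted calls were lower the counts were 470 and 97, which is 11.6% of tested members against 9.09% of all tested tiles. Without 1 library the counts were 438 to 574 and 66 to 100. The edgeR quasi-likelihood test called 603, of which 589 were among the 597, and limma on logit levels 550, of which 547 were. Replicate numbers may pair the tissues, which the labels do not say. In deviations of tile levels, not in the levels themselves, all 8 libraries correlated best with their own number. The 4 same-number correlations ran from 0.0945 to 0.216. Hypothalamus 2 had 0.0945 with its own number and 0.0931 with hippocampus 4. The main tests took the libraries as unpaired, and pairing was used only as an alternative. With the replicate block 541 and 84 members were called, including all 597. In the sign-flip test of the block the differences of 2.47 and 1.10 points had p = 0.125, the smallest it allows in an exact test.

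For named tiles, 497 values under the alternatives kept their direction and stayed called or not called as before, 33 lost the call and 4 turned sign. Those 4 were of the chromosome 3 tile from 158571001, with 12.2 points in the libraries with higher unconverted calls and -6.25 to 4.55 without 1 library. Most of the named tiles were chosen for large differences in these same data. Settings that change only the test or the minimum difference leave the difference itself unchanged, so its direction could not turn there. The minimum of 20 points accounts for 9 of the lost calls, in tiles that differed by less than 20 points. The causes were not tested. Depth limits the shallowest library, with a median of 321 calls per tile in the shallowest library of a member, and calls need not come from independent molecules.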
